A study of Mus musculus with 12 samples.

Results

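Long noncoding RNAs (lncRNAs) of the mouse heart were followed as 9 genes chosen by name, Malat1, Neat1, Meg3, H19, Miat, Gas5, Snhg11, Mirg and Rian. Each symbol matched 1 row of the deposited gene count table, so the members are 9 of 24061 rows. RNA was taken from the entire hearts of male mice aged 4 months, 6 per genotype and 1 library per mouse. Both groups carried floxed Slc4a4 alleles (Slc4a4flx/flx). Slc4a4 encodes the sodium-bicarbonate cotransporter NBCe1. Wild-type hearts, W1 to W6, had no Cre, and knockout hearts, K7 to K12, carried Cre under the β-myosin promoter from a C57Bl6 line, which deletes exon 12 in cardiac myocytes. The deletion and the presence of Cre cannot be told apart in this design, and cells other than myocytes keep the gene.

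An lncRNA acts without being translated, as a scaffold, a decoy or a precursor of small RNAs. Malat1 collects in nuclear speckles, where splicing factors gather, and Neat1 is the scaffold of paraspeckles, a different kind of nuclear body. H19, Meg3, Rian and Mirg come from imprinted loci and are transcribed from the maternal chromosome, and several of them carry small RNAs within their transcripts. Gas5 and Snhg11 belong to the small nucleolar RNA (snoRNA) host genes, and Miat was named for a genetic association with myocardial infarction.

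The libraries held 10631869 to 13327519 counts, and the wild-type libraries were deeper, at 12455870 ± 842736 against 11274054 ± 773973 counts (SD, n = 6 each; exact two-sided permutation p = 0.0303). Slc4a4 ranged from 63.6 to 106 CPM (reads scaled to a common library size of 1000000) in wild-type hearts and from 38.4 to 68.5 CPM in knockout hearts, and its log2 fold change was -0.81 (edgeR adjusted p = 0.0891, SE 0.14). All 10 cardiac myocyte markers examined were detected, with a summed level of 58799 to 65593 CPM in wild type and 58947 to 62458 CPM in knockout. W2 stood apart in red cell transcripts, at 30736 CPM against 4591 to 14232 CPM in the other hearts. K7 stood apart in liver transcripts, at 93.6 CPM against 5.61 to 22.8 CPM. By their snoRNA reads, other than those of 4 rows named with the snoRNA results, the hearts formed 2 sets with 3 of each genotype, W1, W2, W3, K7, K8 and K9 with fewer reads and the other 6 with more. A lower value in bulk tissue can come from fewer cells of a type or from less RNA per cell, and these cannot be told apart. The p-values set a difference or relation against the spread between these mice.

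Malat1 was the most abundant of the lncRNA rows, and 7 of the 9 genes were expressed high enough to be compared between genotypes. Of the 13832 genes tested in edgeR's quasi-likelihood test, 0 had an adjusted p under 0.05 (0%), the lncRNAs included. DESeq2 called 12 genes and limma-voom 0, with 0 of the 9 members among them. At an unadjusted p under 0.05 there was 1 of 7 lncRNAs, H19, which was higher in knockout hearts, against 562 of all genes tested (4.06%), 286 of them higher (2.07%). In 0 of the 7 did the genotypes separate without overlap, which held for 35 of all genes (0.253%). Positive log2 fold changes were found for 3 of 7 lncRNAs and for 50.6% of all genes, with medians of -0.03 and 0.00. Wherever 2 means of a gene are given together, that of wild type comes first.

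Levels between genes were compared per length, as CPM divided by the kilobases of exon in the gene (RPKM). Malat1 averaged 909 ± 195 RPKM over the 12 hearts (SD), rank 26 of 23312 genes with a length. Neat1 followed at 25.3 ± 2.89 RPKM, and in 12 of 12 hearts Malat1 lay above it and Neat1 above H19. H19 at 10.4 ± 2.27 RPKM and Gas5 at 8.93 ± 2.12 RPKM did not separate, since H19 was the higher in 7 of 12 hearts. Snhg11 averaged 3.88 ± 0.456 RPKM, below Gas5 in 12 of 12 hearts. Meg3 at 1.15 ± 0.0775 RPKM and Rian at 0.914 ± 0.109 RPKM lay in that order in 10 of 12 hearts, and their ranges overlapped. Mirg averaged 0.0441 RPKM and Miat 0.00900 RPKM, at the limit of detection. With the longest transcript as the length, H19 and Gas5 became 11.2 and 13.1 RPKM and Meg3 and Rian 1.43 and 2.06 RPKM, so the order within both pairs turned.

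**Figure D1:**
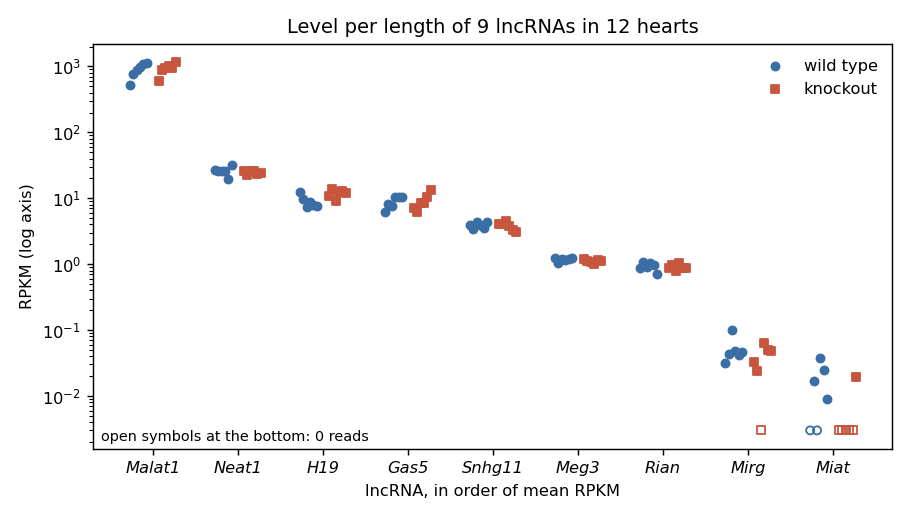
Level per length (RPKM, log axis) of the 9 lncRNAs in each of 12 hearts, ordered by mean; circles are wild-type and squares knockout hearts, and open symbols mark hearts with 0 reads. Malat1 sits at 527 to 1152 RPKM, apart from every other member, and Mirg reaches 0.1003 RPKM and Miat 0.0378 RPKM at most.

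Among the 1827 rows that RefSeq annotates as lncRNA, Malat1 ranked first by CPM and held 41.4% of their reads. Neat1 ranked 5, Gas5 30, Snhg11 32, H19 43, Meg3 61, Rian 73, Mirg 675 and Miat 895. Between Malat1 and Neat1 stood 3 rows, the unnamed Gm44502, at 883 CPM over the 12 hearts, Mhrt, an antisense transcript of the myosin heavy chain locus, at 1142 ± 190 CPM in wild type against 1107 ± 154 CPM in knockout, and Norad, a cytoplasmic RNA that binds Pumilio proteins, at 651 ± 48.8 and 660 ± 26.9 CPM (SD, n = 6 each). The strand setting of the counting was not given, and whether Mhrt reads came from the opposite strand of its locus was not tested. Of 512 lncRNA rows tested 0 were called, and 22 (4.30%) had an unadjusted p under 0.05. Of 42 tested members of a list of other named lncRNAs 22 had positive and 20 negative log2 fold changes, and 0 were called. Its smallest unadjusted p belonged to the snoRNA host Snhg12, at 1.92 ± 0.582 CPM in wild type against 3.33 ± 1.68 CPM in knockout (edgeR adjusted p = 0.999, with a log2 fold change of 0.79 and SE 0.36). Snhg3, another snoRNA host, averaged 3.79 and 2.73 CPM (edgeR adjusted p = 0.999, with a log2 fold change of -0.47 and SE 0.27).

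Malat1, on chromosome 19 from 5795690 to 5802672 on the minus strand (GRCm38), is a nearly intronless nuclear RNA. Wild-type hearts held 3683, 6516 and 7905 CPM as the lowest, median and highest value, and knockout hearts 4224, 6578 and 8048 CPM. In each genotype 1 heart lay well below the rest, W1 at 3683 CPM and K7 at 4224 CPM, and the groups overlapped over nearly their whole range. The means were 6281 ± 1569 and 6416 ± 1260 CPM (SD, n = 6 each), a log2 fold change of 0.03 with a 95% interval from -0.28 to 0.34 (edgeR adjusted p = 0.999). Its sign turned to -0.08, -0.01 and -0.04 without W1, W2 or K12. Malat1 took 0.370% to 0.815% of all reads in a heart, and its CPM spanned 2.19-fold over the 12 hearts. Counting error alone would give a coefficient of variation of 0.366%, and the observed value was 21.4%. Of the 14 genes within 2-fold of its level, 85.7% varied less.

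Neat1 lies 22035 bases from Malat1 on the same strand, at 5824708 to 5845480 of chromosome 19. Its lowest, median and highest values were 411, 543 and 669 CPM in wild type against 474, 514 and 539 CPM in knockout. Both the lowest heart, W5, and the highest, W6, were wild type, and every knockout heart lay between them. The log2 fold change was -0.08 (95% interval -0.26 to 0.09; edgeR adjusted p = 0.999). Its coefficient of variation was 11.4%, and 80.2% of 491 genes of like level varied less. Malat1 and Neat1 did not vary together, with a Pearson r of -0.13 (permutation p = 0.651) and a Spearman rho of -0.20 (permutation p = 0.527) over the 12 hearts. Their reads stood at 6.68 Malat1 reads per Neat1 read in W1 and 18.6 in W5, the 2 ends of the range.

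**Figure D2:**
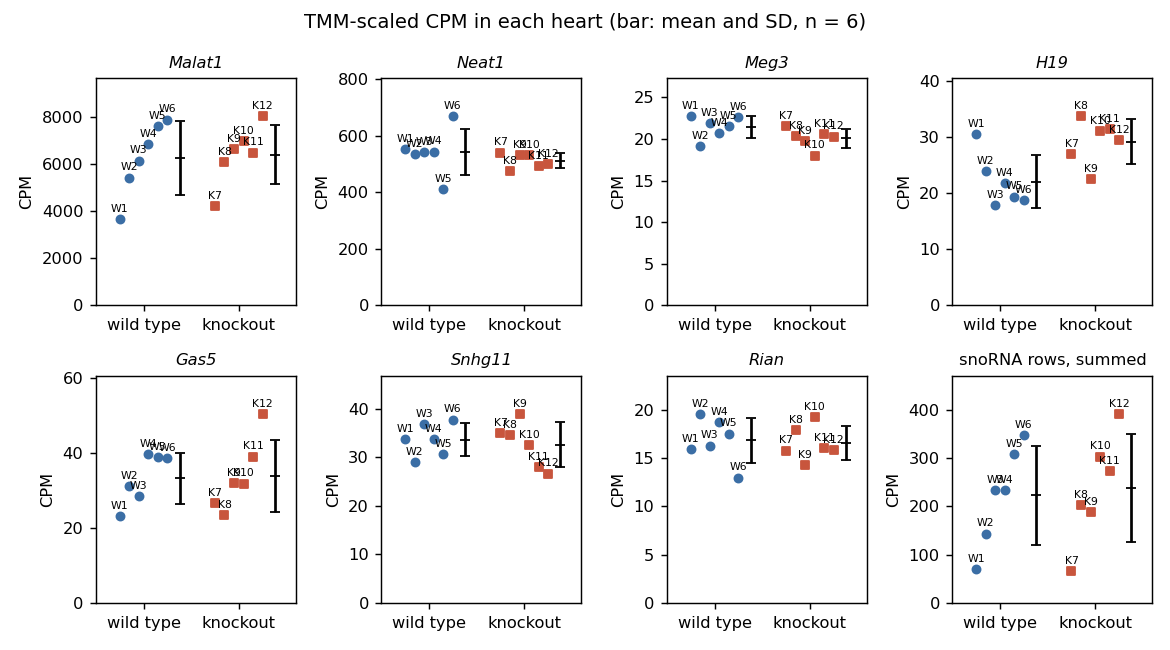
TMM-scaled CPM of the 7 tested lncRNAs, and of all snoRNA rows summed, in each heart (circles wild type, squares knockout, labelled by heart), with the group mean and SD beside them (n = 6). Malat1 and the snoRNA rows are lowest in W1 and K7 and highest in K12, whereas 3 of 6 knockout hearts exceed every wild-type heart for H19.

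The partner proteins of the nuclear bodies are splicing factors and RNA-binding proteins. Of 30 nuclear speckle genes tested, 12 had positive and 18 negative log2 fold changes, 0 were called, and the median was -0.01. The splicing factor Sf3b1 averaged 316 and 283 CPM (edgeR adjusted p = 0.999, with a log2 fold change of -0.16 and SE 0.08), and Srsf3, an SR protein, 97.1 and 110 CPM (edgeR adjusted p = 0.999, with a log2 fold change of 0.18 and SE 0.09). Srrm2 and Son, large proteins of the speckle core, averaged 455 and 534 CPM in wild type against 434 and 522 CPM in knockout. Of 35 paraspeckle genes, 15 had positive and 20 negative log2 fold changes and 0 were called. Fam98a averaged 40.17 and 45.03 CPM, Hnrnpa1, which binds RNA and regulates splicing, 216 and 233 CPM, and Hnrnpk 311 and 306 CPM.

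Heart to heart, the nuclear speckle genes ran opposite to Malat1. Of the 30 genes 29 had a negative Pearson r with Malat1 over the 12 hearts, with a median r of -0.49, against 51.6% negative and a median of -0.01 over the 13831 other genes tested. Sf3b1 had an r of -0.66 and Srrm2 of -0.63, while Son had -0.21 and Srsf3 -0.37. With Gas5 28 of the 30 were negative and with Neat1 20 of 30. Of the 35 paraspeckle genes, 28 were negative with Malat1 and 27 with Neat1. Within the 6 hearts of fewer and the 6 of more snoRNA reads, 22 and 23 of the 30 were negative with Malat1, against 50.2% and 50.7% of all genes. Cell type markers moved with Malat1 over the 12 hearts too: 10 of 10 fibroblast markers had a positive r (median 0.52), as did 10 of 10 macrophage markers (median 0.23) and 5 of 10 myocyte markers, and 8 of 8 red cell genes had a negative r (median -0.39). With Gas5 the counts were 10 of 10 fibroblast (median 0.33), 7 of 10 macrophage and 5 of 10 myocyte markers positive and 8 of 8 red cell genes negative (median -0.36). Summed fibroblast markers ran from 1700 to 2063 CPM in wild type and from 1821 to 2231 CPM in knockout, and macrophage markers from 359 to 554 and from 389 to 483 CPM. Within the 6 hearts of fewer and the 6 of more snoRNA reads the marker counts changed. With Malat1, 7 and 5 of 10 fibroblast, 7 and 10 of 10 macrophage and 7 and 6 of 8 red cell genes had a positive r. With Gas5 these were 5 and 3 fibroblast, 6 and 4 macrophage and 8 and 5 red cell genes. The red cell genes thus did not keep their negative r within the sets. The part of these cells in the pattern was not tested. The speckle pattern was picked out after the values were seen, genes of a list are not independent of each other, and no p was computed for it.

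Gas5, at 161034601 to 161038539 of chromosome 1 on the plus strand, is a growth arrest transcript that hosts snoRNAs and can bind the glucocorticoid receptor. Wild-type hearts held 23.1, 34.9 and 39.6 CPM as the lowest, median and highest value, and knockout hearts 23.5, 31.9 and 50.4 CPM. W1 was again the lowest heart and K12 the highest, and the groups overlapped. The log2 fold change was 0.03 (95% interval -0.31 to 0.36; edgeR adjusted p = 0.999), and its sign turned, to between -0.12 and -0.02, without W1, W3, K11 or K12. With a coefficient of variation of 23.8%, against 5.03% from counting, Gas5 varied more than 97.4% of 4601 genes of like level. The strand setting of the counting was not given in the sources used here, and Gas5 overlaps the antisense gene Zbtb37 by 264 bases, so reads there cannot be told apart.

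Snhg11, on chromosome 2 from 158375713 to 158386474 on the plus strand, is a snoRNA host gene that GENCODE types as protein-coding and RefSeq as lncRNA. Its values were 29.0, 33.7 and 37.7 CPM in wild type against 26.6, 33.5 and 38.9 CPM in knockout. Both extremes were knockout hearts, K12 and K9, and the groups overlapped (log2 fold change -0.04, 95% interval -0.25 to 0.16; edgeR adjusted p = 0.999). Its spread was ordinary, with a coefficient of variation of 11.7% and 53.0% of genes of like level varying less.

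Gas5 and Malat1 rose and fell together from heart to heart. Their Pearson r over the 12 hearts was 0.78 (permutation p = 0.00189, adjusted over 21 pairs of lncRNAs p = 0.0397) and their Spearman rho 0.81 (permutation p = 0.00203, adjusted p = 0.0426). The r was 0.92 among wild-type and 0.68 among knockout hearts, and 0.73 without W1 and K7, the hearts farthest from the Malat1 median. Leaving out 1 heart gave an r of 0.71 to 0.86, and the adjusted permutation p, from 0.00567 to 0.281, stayed under 0.05 only without W2, K8 or K10. Of the other 20 pairs 0 passed the adjusted threshold. Within the 2 sets of hearts that the snoRNA rows separate, r stayed positive but its p was above 0.05. In the hearts with fewer snoRNA reads r was 0.56 (exact permutation p = 0.247, n = 6) and rho 0.71. In those with more, r was 0.52 (exact permutation p = 0.338, n = 6) and rho 0.09. With 6 hearts per set these values cannot tell whether the relation holds within a set.

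**Figure D3:**
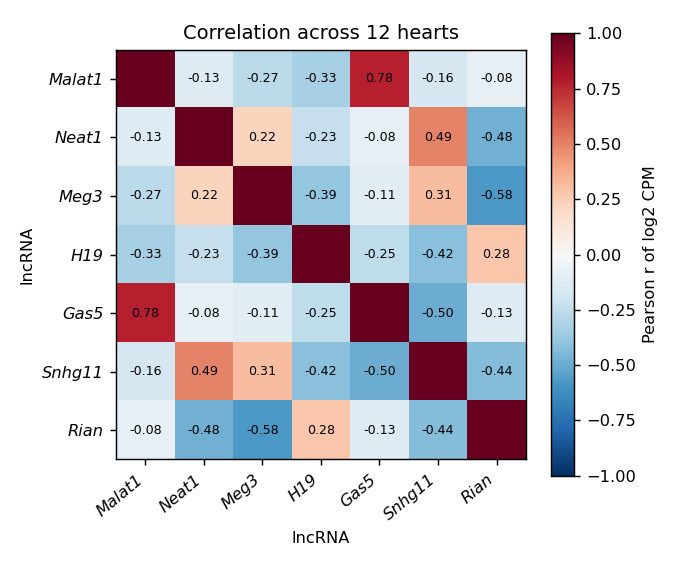
Pearson r of log2 CPM between the 7 tested lncRNAs over 12 hearts, as a colour scale from -1 to 1 with each value printed. Malat1 with Gas5, at 0.78, is the highest, and Meg3 with Rian, at -0.58, the lowest.

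The genes whose heart-to-heart pattern was most like that of Malat1, once each genotype was centred on its own mean, were the snoRNAs Snord82 (r = 0.96), Snord49a (r = 0.95) and Snord55 (r = 0.95). They were chosen as the highest among genes tested, leaving out unnamed identifiers and symbols of the Gm, Rik and LOC kinds. These values are therefore a description. All 3 are of the box C/D class, which guides ribose methylation of other RNAs, and none lies in a Malat1 transcript. Snord82 and Snord49a, the more abundant, are printed with Snord47, the snoRNA of Gas5 that has a row in the table, to show their boxes. Sequences are from GENCODE M21 transcripts (GRCm38), 5′ to 3′, and capitals mark the first TGATGA, the core of box C, and the last CTGA, the letters of box D.
Snord82, chr1:86356261-86356330, minus strand: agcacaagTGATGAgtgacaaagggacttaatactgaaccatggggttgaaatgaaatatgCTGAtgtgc
Snord49a, chr11:62603450-62603521, plus strand: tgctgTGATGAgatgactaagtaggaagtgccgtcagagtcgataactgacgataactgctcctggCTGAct
Snord47, chr1:161038082-161038158, plus strand: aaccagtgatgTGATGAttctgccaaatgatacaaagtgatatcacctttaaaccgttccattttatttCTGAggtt

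Snord82 held 24.5 CPM in W1 and 23.3 CPM in K7, and 54.6 to 122 CPM in the other 10 hearts. Snord49a held 20.4 and 14.5 CPM in the same hearts and 57.1 to 192 CPM elsewhere. Snord55, a low row, ran from 0.317 CPM in K7 to 12.1 CPM in K12. W1 and K7, 1 heart of each genotype, were thus the lowest for all 3 snoRNAs and for Malat1. The spliced hosts of the 2 more abundant snoRNAs followed Malat1 less closely: r with Malat1 was 0.16 for Ncl, which hosts Snord82, and 0.14 for 2410006H16Rik, which hosts Snord49a.

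Summed over the 119 snoRNA rows, wild-type hearts held 70.3, 234 and 348 CPM as the lowest, median and highest value, and knockout hearts 66.0, 238 and 392 CPM. The hearts spanned 5.93-fold, from K7 to K12, and the genotypes overlapped throughout. Of 13 snoRNA rows tested between genotypes 0 were called and 0 had an unadjusted p under 0.05, with a median log2 fold change of 0.16. Over the 12 hearts the sum had a Pearson r of 0.97 with Malat1 and 0.74 with Gas5. Snord82, Snord49a and Snord55, chosen for their likeness to Malat1, made up 57.8% to 86.0% of the sum by heart, so these values are a description of a relation noticed in the same data.

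The other snoRNA rows, 115 once Snord47 of Gas5 was also left out, were lower. Their sum was 24.8, 41.6 and 51.9 CPM as lowest, median and highest value in wild type and 27.7, 39.8 and 63.4 CPM in knockout. On it the hearts fell into 2 sets with 3 hearts of each genotype: W1, W2, W3, K7, K8 and K9 at 24.8 to 32.9 CPM, and W4, W5, W6, K10, K11 and K12 at 46.7 to 63.4 CPM. The sets follow the replicate numbers of the labels, 1 to 3 and 7 to 9 against 4 to 6 and 10 to 12. The labels name no batch, and whether the sets mark one was not tested. Malat1 was higher in the second set, at 6501 to 8048 CPM against 3683 to 6655 CPM, with overlap, and Gas5 ran from 31.8 to 50.4 CPM against 23.1 to 31.9 CPM. Since the hearts form sets, relations were taken within each, 14 in all for 7 lncRNAs, and 0 passed the adjusted threshold.

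In the hearts with fewer snoRNA reads the r of Malat1 with the other snoRNA rows was 0.94 (exact permutation p = 0.00833, adjusted p = 0.117) and the Spearman rho 0.77 (exact permutation p = 0.103). In those with more it was 0.71 (exact permutation p = 0.0833, adjusted p = 0.389), with a rho of 0.60 (exact permutation p = 0.242). For Gas5 the order was the other way round, with an r of 0.33 (exact permutation p = 0.496, adjusted p = 0.771) and a rho of 0.26 (exact permutation p = 0.658) in the first set. In the second the r was 0.89 (exact permutation p = 0.0417, adjusted p = 0.292) and the rho 0.66 (exact permutation p = 0.175). The other 5 lncRNAs had an r from -0.60 to 0.45. By row, of the 10 tested snoRNAs other than those 3, 8 had a positive r with Malat1 over the 12 hearts and 8 with Gas5, against 48.4% and 48.6% of all genes. How RNA was selected for these libraries was not given in the sources used here.

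**Figure D4:**
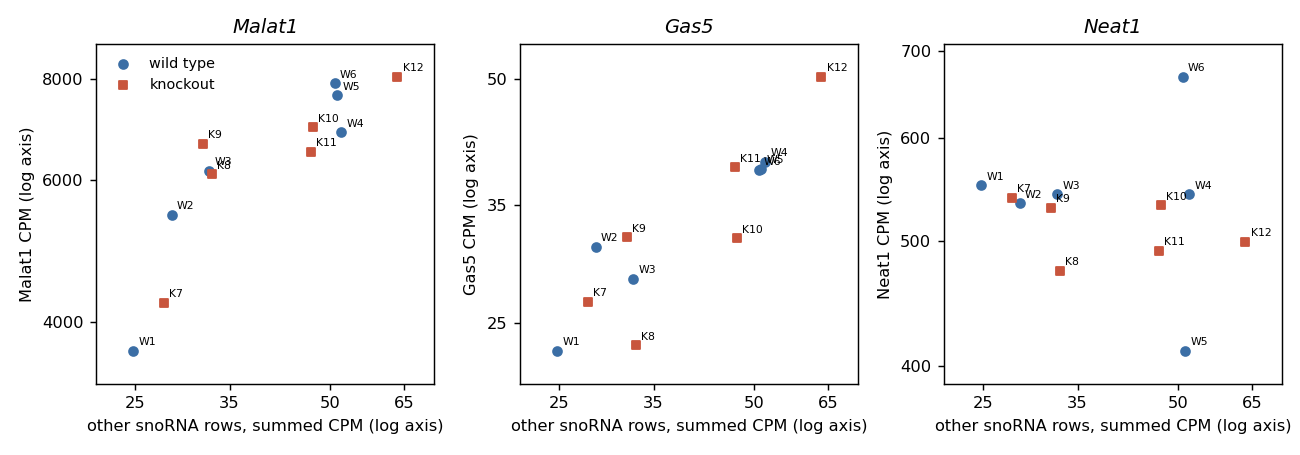
Malat1, Gas5 and Neat1 in CPM (log axes) against the summed CPM of the 115 snoRNA rows other than Snord82, Snord49a, Snord55 and Snord47 in the same heart (log axis), with circles for wild-type and squares for knockout hearts. The hearts form 2 sets along the horizontal axis, 24.8 to 32.9 and 46.7 to 63.4 CPM, Malat1 and Gas5 are mostly higher in the second, and Neat1 spans 411 to 669 CPM within it.

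Genes that host snoRNAs or carry a 5′ terminal oligopyrimidine tract, as Gas5 does, were counted as a group. Of 33 such genes 16 had positive and 17 negative log2 fold changes between genotypes, 0 were called, and the median was 0.00. Rack1, a ribosomal scaffold protein gene, averaged 154 ± 8.54 and 169 ± 12.6 CPM (edgeR adjusted p = 0.999, with a log2 fold change of 0.14 and SE 0.06), and the elongation factors Eef1a1 and Eef2 stood at 1305 and 1337 CPM in wild type against 1342 and 1322 CPM in knockout. Over the hearts, 15 of the 33 had a positive r with Gas5 and 10 of 33 with Malat1. Among genes linked to Gas5 or Miat function, 21 were tested, 9 with positive and 12 with negative log2 fold changes, and 0 were called. Fkbp5, a glucocorticoid receptor target, averaged 29.6 and 21.5 CPM (edgeR adjusted p = 0.999, with a log2 fold change of -0.46 and SE 0.22). Tsc22d3, also a target of that receptor, averaged 205 and 193 CPM, the repressor gene Rest 15.02 and 12.3 CPM, and Qk, which encodes an RNA-binding protein, 1282 and 1279 CPM.

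Promoter windows are shown for Malat1 and Gas5, which varied together over the 12 hearts, and for Meg3, which did not follow them. They are 300 bases from RefSeq (GRCm38.p6), from 250 before to 50 after an annotated start, the Gas5 window is that of its second start and the Meg3 window that of its first. Capitals mark TGACGTCA, the palindromic cAMP response element, and TATAAA with its reverse complement TTTATA, which overlap in Meg3. Both motifs were searched on both strands.
Malat1, chr19:5802623-5802922, minus strand: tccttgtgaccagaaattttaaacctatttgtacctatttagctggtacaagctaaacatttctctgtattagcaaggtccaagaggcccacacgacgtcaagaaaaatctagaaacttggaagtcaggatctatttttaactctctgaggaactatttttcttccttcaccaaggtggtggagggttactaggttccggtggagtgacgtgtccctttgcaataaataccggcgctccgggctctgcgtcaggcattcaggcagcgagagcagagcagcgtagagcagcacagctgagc
Gas5, chr1:161034916-161035215, plus strand: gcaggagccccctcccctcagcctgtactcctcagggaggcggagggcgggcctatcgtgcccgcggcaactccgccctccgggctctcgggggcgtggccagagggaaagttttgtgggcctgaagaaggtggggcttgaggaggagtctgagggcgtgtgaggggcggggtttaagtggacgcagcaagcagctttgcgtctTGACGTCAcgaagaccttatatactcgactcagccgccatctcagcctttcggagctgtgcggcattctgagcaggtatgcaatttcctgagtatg
Meg3, chr12:109540746-109541045, plus strand: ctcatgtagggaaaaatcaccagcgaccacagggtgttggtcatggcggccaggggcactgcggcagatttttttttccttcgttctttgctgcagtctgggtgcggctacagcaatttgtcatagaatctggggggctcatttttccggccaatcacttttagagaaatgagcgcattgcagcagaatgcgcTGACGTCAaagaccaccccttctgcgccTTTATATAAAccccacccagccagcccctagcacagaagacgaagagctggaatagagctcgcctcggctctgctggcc

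TGACGTCA began 46 bases before the Gas5 start and 57 bases before the Meg3 start, and TATAAA began 25 bases before the Meg3 start. In the Malat1 window neither was found, nor in the other RefSeq windows of Gas5, chr1:161034351-161034650, and Meg3, chr12:109545148-109545447. Of all 32851 promoter windows, 588 (1.79%) hold TGACGTCA and 4473 (13.6%) hold TATAAA or its reverse complement. The windows of Malat1 and Gas5 did not share these letters. Meg3 and Gas5, which each have the first in 1 of 2 windows, had an r of -0.11 over the hearts. Whether these letters have a part in how the genes vary was not tested.

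Meg3, Rian and Mirg are read from the plus strand of the imprinted Dlk1-Dio3 domain on chromosome 12, within 208463 bases. Meg3 spans 109540996 to 109571729, Rian 109603945 to 109661716 and Mirg 109734981 to 109749458. Meg3 held 19.2, 21.7 and 22.7 CPM as lowest, median and highest value in wild type and 18.0, 20.3 and 21.5 CPM in knockout. The lowest heart was K10 and the highest W1, and 1 knockout heart lay below every wild-type heart. The means were 21.4 ± 1.35 and 20.1 ± 1.18 CPM (SD, n = 6 each; log2 fold change -0.09, 95% interval -0.27 to 0.08; edgeR adjusted p = 0.999). Meg3 was among the steadiest genes of its level: its coefficient of variation of 6.76% was close to the 6.37% that counting alone gives, and 1.71% of 4624 genes of like level varied less.

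Rian, which carries box C/D snoRNAs and microRNAs, held 13.0, 16.9 and 19.5 CPM in wild type against 14.3, 15.9 and 19.2 CPM in knockout. W6 was the lowest and W2 the highest heart, and knockout hearts lay between them. The log2 fold change was -0.03 (95% interval -0.26 to 0.20; edgeR adjusted p = 0.999), and it turned positive, up to 0.03, without W2, without W4, without K9 or without W2 and K7 together. Its coefficient of variation was 11.9% against 7.12% from counting. Although neighbours in 1 domain, Meg3 and Rian leaned in opposite directions, with a Pearson r of -0.58 (permutation p = 0.0491, adjusted p = 0.469) and a Spearman rho of -0.43 (permutation p = 0.161, adjusted p = 0.426), which did not pass. The r was -0.82 among wild-type and -0.56 among knockout hearts, and -0.50 without W1 and K10. Rtl1, a gene antisense to both, had 35 reads in all.

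Mirg, the precursor of a microRNA cluster, had 46 reads in all, 28 in wild-type and 18 in knockout hearts, and was detected in 11 of 12 hearts. It had 3 to 9 reads in each wild-type heart and 0 to 5 in each knockout heart, and the groups overlapped. Its mean CPM was 0.378 ± 0.178 in wild type and 0.265 ± 0.164 in knockout (SD, n = 6 each; exact two-sided permutation p = 0.323), and it was too low for the test across genes. A heart with 0 reads allows up to 3 reads, or 0.227 to 0.283 CPM by library, for counting error only.

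Of 12 genes listed for the Dlk1-Dio3 domain 6 were tested, 1 with a positive and 5 with negative log2 fold changes, and 0 were called. Ppp2r5c, a phosphatase subunit gene, averaged 218 ± 10.8 and 216 ± 9.09 CPM, the transcription factor gene Yy1 64.9 ± 10.6 and 64.1 ± 5.08 CPM, and Wdr25 2.66 and 2.87 CPM (SD, n = 6 each).

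Small RNA hairpins within the lncRNAs had rows of their own. RefSeq places 3 mature microRNAs in Meg3, 6 in Rian, 19 in Mirg and 2 in H19. Those whose hairpin rows held 10 or more reads are shown with miR-453 and miR-496a-5p, the pair of Mirg matures with the same seed. Sequences are from RefSeq (GRCm38.p6), 5′ to 3′, and capitals mark the seed, bases 2 to 8.
miR-1906 of Meg3: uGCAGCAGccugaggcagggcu
miR-410-3p of Mirg: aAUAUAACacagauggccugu
miR-410-5p of Mirg: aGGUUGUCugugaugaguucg
miR-453 of Mirg: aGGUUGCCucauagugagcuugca
miR-496a-5p of Mirg: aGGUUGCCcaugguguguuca
miR-675-5p of H19: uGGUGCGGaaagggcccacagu
miR-675-3p of H19: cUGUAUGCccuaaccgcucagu

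The hairpin row of miR-1906 held 48 reads, of which W4 had 22 and each other heart 0 to 6. Mir410 held 14 reads in 5 hearts, 7 in each genotype. Within Rian, the snoRNA rows AF357359 and AF357425 held 16 and 12 reads. Snord47 within Gas5 held 107 reads, 53 in wild type and 54 in knockout, with 23 each in W2 and K12. These rows count reads that fall on the hairpin or snoRNA, from precursor or mature RNA, and were too low to enter the test across genes.

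H19, at 142575530 to 142578146 of chromosome 7 on the minus strand, is a fetal transcript of the imprinted H19-Igf2 domain that is much reduced after birth. Wild-type hearts held 17.9, 20.5 and 30.4 CPM as the lowest, median and highest value, and knockout hearts 22.5, 30.2 and 33.7 CPM. In 3 of 6 knockout hearts, K8, K10 and K11, the value lay above every wild-type heart, while W1, at 30.4 CPM, lay within the knockout range. The means were 22.0 ± 4.68 and 29.2 ± 3.97 CPM (SD, n = 6 each), 32.3% higher in knockout with a 95% interval from 10.4% to 58.6%. The log2 fold change was 0.40 (SE 0.13), with an unadjusted p of 0.00423 and an adjusted p of 0.999 in edgeR, so it did not pass over all genes. On this gene alone the exact two-sided permutation p was 0.0260.

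**Figure D5:**
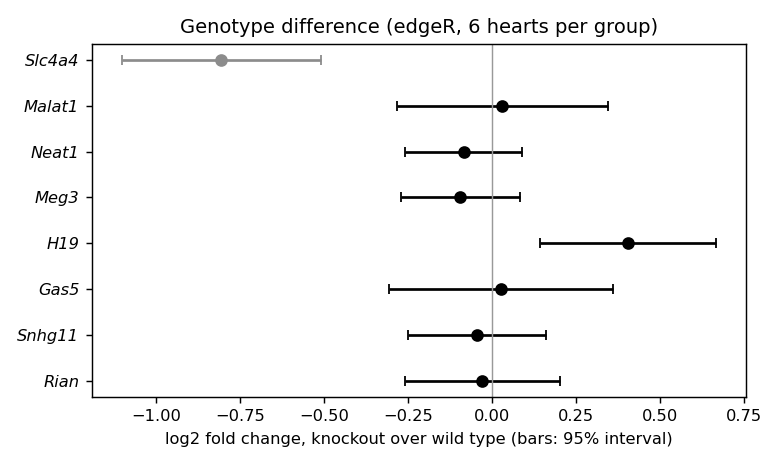
Log2 fold change of knockout over wild type for Slc4a4 (grey) and the 7 tested lncRNAs, with 95% intervals from edgeR (6 hearts per group). Of the lncRNA intervals only that of H19, from 0.14 to 0.67, lies to 1 side of 0, before any adjustment for the genes tested.

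The H19 difference kept its direction in every alternative, with log2 fold changes from 0.35 to 0.52, and the lowest adjusted p was 0.301, without W1. Without W2 and K7 it was 0.45 (SE 0.14; edgeR adjusted p = 0.965). Of 8 red cell genes tested, 7 were lower in knockout at an unadjusted p under 0.05, against 276 of all 13832 genes tested (2%). The summed level of the red cell genes ran from 5507 to 30736 CPM in wild type and from 4591 to 10975 CPM in knockout. Of 7 tested fat cell markers 7 had negative log2 fold changes, against 6834 of all 13832 genes tested. The fat cell sums were 252 to 378 and 222 to 318 CPM. Summed liver markers were 5.61, 7.44 and 10.4 CPM as lowest, median and highest value in wild type and 5.69, 17.9 and 93.6 CPM in knockout. Alb, which encodes the liver's serum albumin, lay above every wild-type heart in 6 of 6 knockout hearts. Of all genes tested, 35 (0.253%) separated without overlap in either direction. The Alb mean was 15.4 ± 23.5 CPM in knockout against 0.358 ± 0.403 CPM in wild type (SD, n = 6 each). For Alb the edgeR adjusted p was 0.0832, with a log2 fold change of 5.43 (SE 0.89). The part of red cells, fat cells and liver RNA in the H19 result was not tested. In the 6 hearts with fewer reads of the other snoRNA rows H19 averaged 24.1 ± 6.28 and 27.7 ± 5.64 CPM with overlap, and in the 6 with more 19.95 ± 1.55 and 30.6 ± 1.11 CPM without overlap (SD, n = 3 each). Meg3 was also without overlap in those last 6 hearts, at 20.7 to 22.6 CPM in wild type and 18.0 to 20.6 CPM in knockout. The sets were formed after the data were seen, and the share of all genes that separate in this split was not computed. With 3 against 3 an exact two-sided permutation p cannot go below 0.10, even for groups that do not overlap, so none is given.

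Igf2, the growth factor gene that shares the H19 imprinting control region, was named after its values were seen, and averaged 65.2 ± 11.5 and 64.8 ± 7.15 CPM (SD, n = 6 each; edgeR adjusted p = 0.999, with a log2 fold change of -0.01 and SE 0.10). Wild-type hearts had 0.228 to 0.469 H19 reads per Igf2 read and knockout hearts 0.399 to 0.522. W1 and W2, at 0.469, lay within the knockout range and the other 4 wild-type hearts lay below it. Mir675, the microRNA within H19, had 23 reads in wild-type and 31 in knockout hearts, 13 of these in K12.

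Of 8 tested genes of the H19-Igf2 region 4 had positive and 4 negative log2 fold changes, and 0 were called. Cdkn1c, a maternally expressed inhibitor of the cell cycle, averaged 25.6 ± 2.47 and 21.9 ± 2.38 CPM (SD, n = 6 each; edgeR adjusted p = 0.999, with a log2 fold change of -0.23 and SE 0.10). The lncRNA Kcnq1ot1 averaged 94.4 ± 14.1 and 89.8 ± 13.9 CPM, and the tetraspanin gene Cd81 480.5 ± 39.5 and 513 ± 32.2 CPM. In a wider list of imprinted genes, 13 of 26 had positive and 13 negative log2 fold changes, 0 were called and the median was 0.00. Sgce, a sarcoglycan gene, averaged 10.2 ± 1.98 and 12.7 ± 1.06 CPM (edgeR adjusted p = 0.999, with a log2 fold change of 0.30 and SE 0.13). Gnas, which encodes a stimulatory G protein subunit, averaged 1196 ± 194 and 1362 ± 156 CPM, and the matrix proteoglycan gene Dcn 1062 ± 125 and 1138 ± 117 CPM.

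Miat, on chromosome 5 from 112213228 to 112228948 on the minus strand, was at the limit of detection at this depth. It had 12 reads in all, 10 in 4 wild-type hearts and 2 in 1 knockout heart, so 0 to 4 reads per library. A count of 0 allows 3 reads, so the genotypes overlapped within counting error (exact two-sided permutation p = 0.152), and no fold is given.

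The remaining genes most like each lncRNA, with values centred within genotype, are a description of these 12 hearts. For Gas5 they included Ppfibp1 (r = 0.90) and Emc2 (r = 0.90), and for Neat1 Gdpd5 (r = 0.95), Rad1 (r = 0.88) and Glyr1 (r = 0.86). For Meg3 they were Klhl18, Nelfb and Nol4l (r = 0.89 to 0.93), and for Rian Slc16a12, Jmy and Arhgap5 (r = 0.90 to 0.91). H19 was most like Harbi1 and Acads (r = 0.89 and 0.88) and 2610044O15Rik8 (r = 0.88), and Snhg11 most like Htra2, Atg4c and Tdp2 (r = 0.90 to 0.93). Of 8 tested genes from a list of RNAs without a poly(A) tail, all of them histone genes, 2 had positive and 6 negative log2 fold changes. Of these 0 were called, and whether their reads came from transcripts without a tail was not tested. H2bc4 averaged 76.6 and 70.8 CPM, H2ac18 9.69 and 10.2 CPM, H1f2 4.75 and 3.84 CPM and H1f4 1.66 and 1.59 CPM.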

How the data were processed

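For each of 12 hearts the authors deposited unnormalized read counts by gene. The mm10 build, TopHat, bcl2fastq, CASAVA 1.8 and DESeq were named, per the submitters' processing notes. The counting program, annotation, strand setting, treatment of multiply mapped reads and the library selection were not given in the sources used here. Names came from RefSeq for 23976 of 24061 identifiers, and lengths from GENCODE M21 (union of exons) for RPKM.

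Genotypes were compared in edgeR 4.0.16 (R 4.3.3; filterByExpr with minimum count 10, TMM, quasi-likelihood F test, Benjamini-Hochberg adjustment over 13832 genes at 0.05). CPM are TMM-scaled, and correlations used log2 CPM with a prior count of 0.5 and 100000 permutations. Single values had exact permutation tests over 924 regroupings. Intervals are at 95%. Alternatives were DESeq2 1.42.0, limma-voom 3.58.1, other scalings and filters, and hearts left out. Added after seeing the data were the snoRNA relation and the sets of hearts it is given in (split at the widest gap in log2 CPM, with exact tests over 720 orders), the exact tests of lncRNAs and library totals without Malat1. The fits and correlations were tested on simulated data.

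The members and gene lists were chosen with earlier results of these data known. The genes named are Slc4a4, the 9 lncRNAs and up to 4 genes per list. Those of a list are the called ones, or otherwise the 2 of smallest p and the 2 of highest level. Also named are hosted rows with at least 10 reads and the 3 genes most like each lncRNA. Likeness was ranked over genes tested, without unnamed identifiers, symbols of the Gm, Rik and LOC kinds and rows overlapping the lncRNA. Some items that this rule takes are not reported here.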

Additional observations from a re-analysis of the deposited data

Results flagged for a closer look

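Over 20 groups of 6 hearts, 2 held a heart far from the others by Dixon's gap test at the 95% level, and chance alone flags about 1 in 20 groups. Miat in knockout hearts was 0.178 CPM in K12, which is 2 reads, and 0 in the other 5. Mirg in wild-type hearts was 0.732 CPM in W3, which is 9 reads, against 0.227 to 0.352 CPM in the others.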

How the results depend on the processing

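No paired analysis was possible because the genotypes share no replicate numbers (1 to 6 and 7 to 12). Over all genes, DESeq2 called 12 and edgeR without a low-count filter called 16, where the main test called 0, and without the filter 985 genes had an unadjusted p under 0.05. Leaving out 1 heart gave 0 to 2 calls and 454 to 779 genes at an unadjusted p under 0.05. Slc4a4 passed under DESeq2 (-0.81), without the filter (-0.81) and without K8, and ran from -0.92 to -0.74 with 1 heart left out. No alternative moved an lncRNA past the threshold. With 1 heart left out, log2 fold changes ran from -0.084 to 0.13 for Malat1, -0.12 to 0.11 for Gas5, -0.10 to 0.0074 for Snhg11, -0.093 to 0.014 for Rian, -0.15 to -0.016 for Neat1, -0.13 to -0.065 for Meg3 and 0.35 to 0.52 for H19. Rian was 0.029 without W2 and K7. Pairs of lncRNAs that passed numbered 0 to 1 with 1 heart left out, and r ran from 0.71 to 0.86 for Malat1 and Gas5 and from -0.50 to 0.071 for Malat1 and Neat1. Among pairs that did not pass, with 1 heart left out r ran from -0.46 to 0.034 for Malat1 and Meg3, -0.32 to 0.031 for Malat1 and Snhg11, -0.20 to 0.17 for Malat1 and Rian, -0.080 to 0.47 for Neat1 and Meg3, -0.68 to 0.069 for Neat1 and H19, -0.33 to 0.10 for Neat1 and Gas5, -0.23 to 0.11 for Meg3 and Gas5 and -0.23 to 0.013 for Gas5 and Rian. With library totals r turned to 0.0056 for Neat1 and Gas5 and to 0.030 for Meg3 and Gas5. Within each set of 6 hearts, r of Malat1 and Gas5 with the other snoRNA rows stayed positive and short of the threshold with library totals (0.27 to 0.92) and with Snord47 (0.39 to 0.96), and hearts were not left out there because 5 would remain. With the longest transcript as length, levels were 1.43 RPKM for Meg3, 13.1 for Gas5, 5.64 for Snhg11, 0.0842 for Mirg and 2.06 for Rian. The causes were not tested. Depth limits Miat, Mirg and the hosted small RNA rows most.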

Other observations

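Of the 21 pairs of lncRNAs, H19 and Malat1 had the widest gap in r between the 2 genotypes. The pair is named for that gap, after the values were seen, and the difference was not tested. Over the 6 wild-type hearts their Pearson r was -0.88, and over the 6 knockout hearts it was 0.14. Over all 12 hearts the r was -0.33 (permutation p = 0.304, adjusted over 21 pairs of lncRNAs p = 0.691) and the Spearman rho -0.29 (permutation p = 0.355). Other pairs differed too, among them Meg3 and Snhg11, with an r of 0.74 in wild-type and -0.08 in knockout hearts. Gas5 and Snhg11 had -0.02 and -0.77.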
